A study of Mus musculus with 8 samples.

Results

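Chemokines and their receptors were examined in mammary glands of pubertal mice with both or 1 of their Sox9 copies floxed and a mammary Cre transgene. The members were the genes whose symbols are Ccl, Cxcl, Ccr or Cxcr followed by a number, without the eotaxin genes Ccl11 and Ccl24 and the eotaxin receptor Ccr3. They numbered 45 of the 19938 genes tested. For each gene the probe set with the highest mean over the arrays was used, among probe sets annotated with exactly 1 gene symbol. The genes Ccl21a, Ccl21b, Ccl21c, Ccl27a and Ccl27b share 7 probe sets with near-identical copies and have no value of their own, and Cxcr7 is listed under its newer symbol Ackr3 and is described with the atypical receptors.

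The study set 4 MMTV-Cre;Sox9 flox/flox females against 4 MMTV-Cre;Sox9 +/flox females, all of them virgin, untreated, 5 weeks old and of a C57BL/6 X FVB background. Every mouse, controls included, carried the Cre transgene and at least 1 floxed Sox9 copy, and there were no mice without Cre. Cre was driven by the promoter of mouse mammary tumour virus, which is active mainly in mammary epithelium, whereas the RNA came from whole tissue with its fat, stroma and immune cells. A piece of gland number 4 near the lymph nodes was taken from each mouse, and every mouse has an Affymetrix Gene 1.0 ST array to itself.

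Chemokines are small secreted proteins that steer leukocytes by binding receptors coupled to G proteins. CC and CXC chemokines are told apart by the spacing of their first cysteines. Some are made steadily and lay out lymphoid organs, such as Cxcl13 with its receptor Cxcr5 in B cell follicles, and others are induced by inflammation or interferon. In the mammary gland at puberty, macrophages and eosinophils gather around the growing ducts and end buds.

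Array medians of the deposited intensities lay between 159 and 178, and all intensities below are after quantile normalization. Sox9 read 298, 356, 287 and 351 in flox/flox glands, against 424, 448, 401 and 366 in +/flox glands, without overlap (2-sided exact permutation test, p = 0.0286, the smallest that 4 against 4 arrays allow; limma adjusted p = 0.256). Luminal markers were present on every array, with a summed intensity of 10710 to 13671 in flox/flox and 11025 to 13444 in +/flox glands. The array of +/flox replicate 2 stood apart. It was the highest of the 8 arrays for 8 of 9 measured B cell markers and 8 of 9 T cell markers, and its Glycam1, a mucin of the high endothelial vessels of lymph nodes, read 4672, against 106 to 115 in flox/flox and 93.3 to 114 in the other +/flox glands. Of the 7 measured genes of lymph node stroma and high endothelium, 2 were highest on that array, Glycam1 and Il7. Madcam1 of that list read 62.9 in that gland, against 75.4 to 119 in flox/flox and 77.4 to 91.8 in the other +/flox glands. The differences of the lymphoid genes are therefore given with and without +/flox replicate 2. The tissue is a mixture, so fewer cells of a type and less RNA per cell cannot be told apart. Tissue identifiers of the flox/flox glands begin with other letters than those of the +/flox glands. The labels do not say what the letters mean, and whatever they stand for cannot be told apart from genotype.

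No chemokine or chemokine receptor passed the test between genotypes. Of the 45 members 0 had a limma adjusted p under 0.05, where 0.0401% of all genes tested did. At an unadjusted p under 0.05 there were 2 members, Ccl6 and Cxcl9, both higher in flox/flox, or 4.44% of the members, where 10.3% of all genes lay under that limit in either direction, 4.81% as higher and 5.46% as lower. In 0 members were the genotypes without overlap, compared with 5.9% of all genes. The median log2 difference, flox/flox minus +/flox, was -0.02 over the members and -0.01 over all genes, with 21 members positive and 24 negative, and 47.4% of all genes positive. Of the members 37 differed by less than 0.2 in either direction. All log2 values and folds carry an offset of 16 added to the intensity, which understates the differences of low genes.

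**Figure D1:**
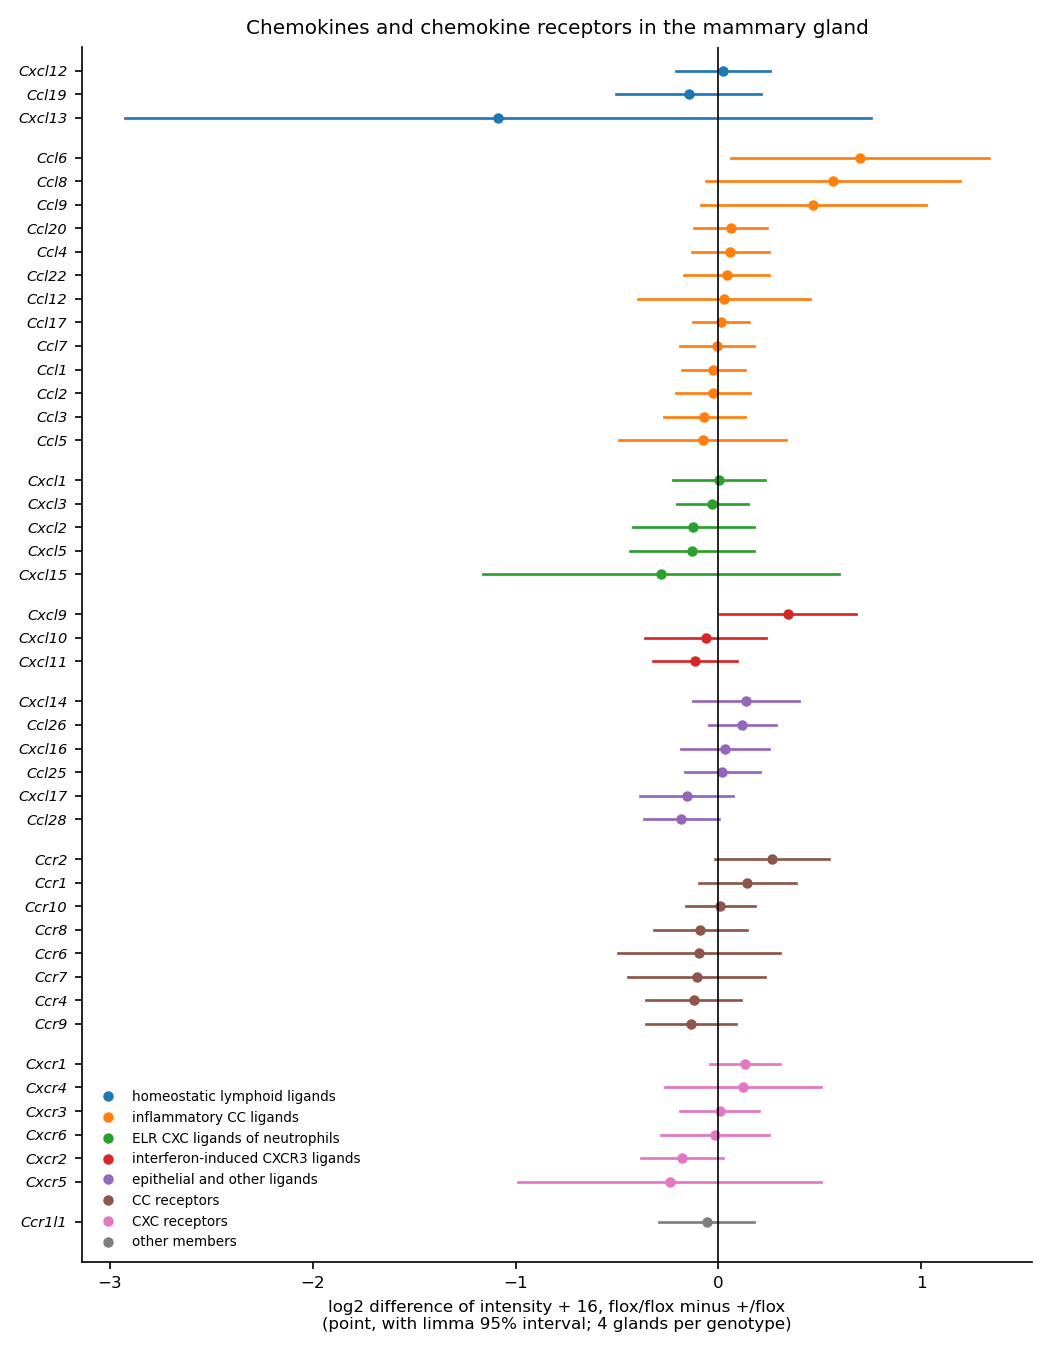
Log2 difference in intensity (flox/flox minus +/flox, offset of 16) of the 45 members, with limma's 95% interval from 4 glands per genotype, grouped by role. The interval lies above 0 for Ccl6 and Cxcl9 and spans 0 for the other members, and the widest interval, -2.93 to 0.75, belongs to Cxcl13.

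What set the members apart from each other was their spread between glands of the same genotype. The within-genotype SD of the log2 values was at least 0.3 in 10 members (22.2%) and in 3.21% of all genes. These were Cxcl13, Cxcl15, Cxcr5, Ccl6, Ccl8, Ccl9, Ccl12, Ccl5, Ccr6 and Cxcr4. Cxcl13 had an SD of 1.57, the third highest of all 19938 genes. Without +/flox replicate 2 there were 5 such members (11.1%), namely Cxcl15, Ccl6, Ccl8, Ccl9 and Ccl12, and 3.23% of all genes. The spread of Cxcl13, Cxcr5, Ccl5, Ccr6 and Cxcr4 thus dropped under that limit without 1 gland, and that of the other 5 did not.

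Among the inflammatory CC ligands, Ccl6, Ccl9 and Ccl8 had the largest positive differences. Ccl6 is a mouse chemokine made mostly by macrophages and other myeloid cells, and Ccl9, its neighbour on chromosome 11, binds the same receptor, Ccr1. Ccl6 read 2126, 1019, 1705 and 1451 in flox/flox glands, against 576, 816, 1614 and 989 in +/flox glands. All 4 flox/flox values lay above 3 of the 4 controls, and +/flox replicate 3 lay inside the flox/flox range. The flox/flox mean was 1575 ± 464 and the +/flox mean 999 ± 444 (SD over 4 glands, as for every mean below), a 1.62-fold difference (log2 difference 0.70 ± 0.29 SE, 95% interval 0.06 to 1.33, limma unadjusted p = 0.0339, adjusted p = 0.451). With 1 gland left out, the unadjusted p stayed under 0.05 without flox/flox replicate 2 or +/flox replicate 3 and not without any of the other 6, and the difference ran between 0.47 and 0.96.

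Ccl9 read 1603, 844, 1292 and 1122 in flox/flox glands, against 541, 804, 1346 and 897 in +/flox glands. The order of the glands was nearly that of Ccl6, with flox/flox replicate 1 highest and +/flox replicates 1 and 2 lowest, and the genotypes overlapped. Its log2 difference was 0.47 ± 0.25 (SE, interval -0.09 to 1.02, limma adjusted p = 0.562). Ccl8, a monocyte chemoattractant whose mouse protein acts through Ccr8, read 433, 207, 366 and 274 in flox/flox glands, against 135, 145, 336 and 257 in +/flox glands. The same glands were high and low, and the log2 difference was 0.56 ± 0.28 (interval -0.06 to 1.19, limma adjusted p = 0.536). Without +/flox replicate 1 the differences were 0.25 ± 0.22 for Ccl9 and 0.38 ± 0.28 for Ccl8. As a description of 8 arrays, the deviations of Ccl6 and Ccl9 from their genotype means had a Pearson correlation of 0.996, the highest of the 990 pairs of members, and those of Ccl6 and Ccl8 one of 0.951. Values of 1 array share its RNA and hybridisation.

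**Figure D2:**
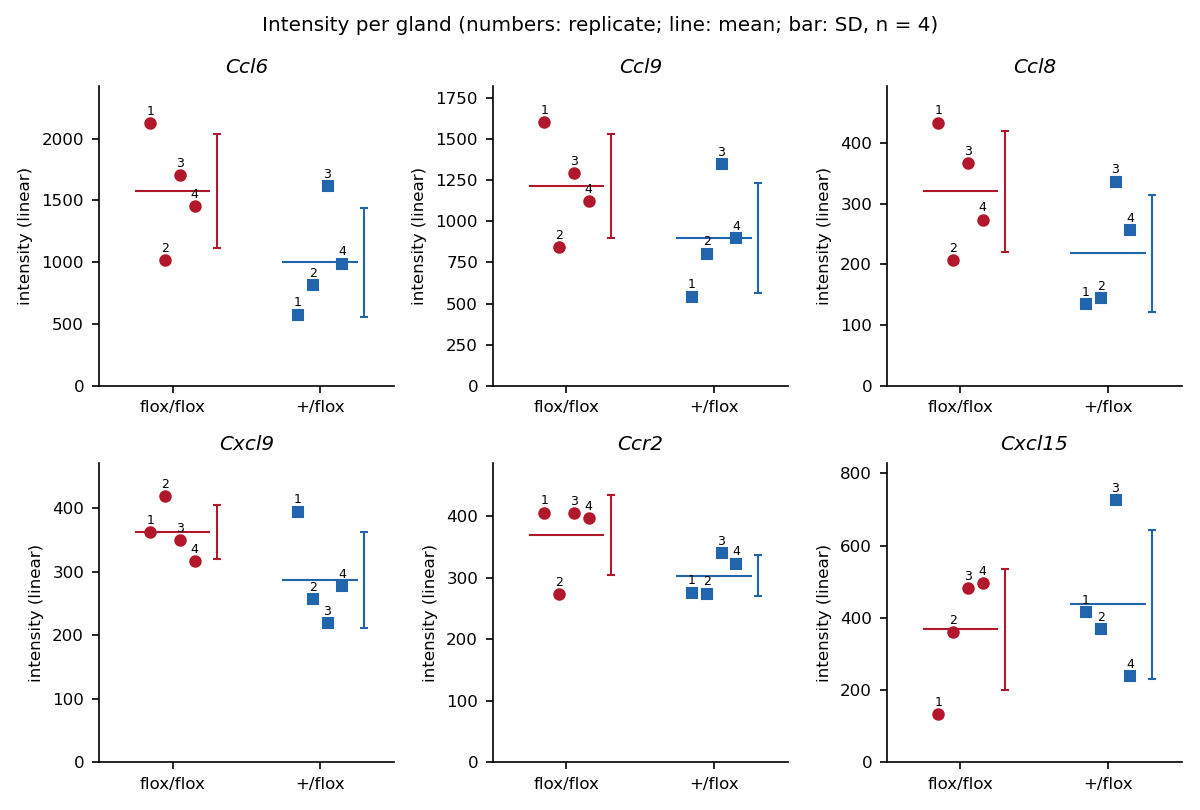
Linear intensity of Ccl6, Ccl9, Ccl8, Cxcl9, Ccr2 and Cxcl15 in each gland, with replicate numbers, mean and SD (n = 4 per genotype). The genotypes overlap in all 6 panels, and +/flox replicate 3 lies with the flox/flox glands for Ccl6, Ccl9 and Ccl8.

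Several marker lists moved with these 3 ligands within the genotypes. As a description over 8 arrays, deviations of the list means correlated with those of Ccl6, Ccl8 and Ccl9 at 0.88, 0.94 and 0.88 for macrophages, 0.93, 0.87 and 0.92 for skin, 0.87, 0.87 and 0.86 for fibroblasts, and 0.76, 0.71 and 0.77 for endothelium. Skin markers summed to 806 to 888 in flox/flox and 918 to 1018 in +/flox glands (1 of 5 positive, lowest value 34.5), and fibroblast markers to 31980 to 37836 in flox/flox and 34822 to 45059 in +/flox glands (3 of 7 positive, lowest value 1389). The part of skin, fibroblasts and endothelium in the ligand values was not tested. For macrophages, the summed intensity of the 10 measured markers of 11 was 7859, 5827, 7725 and 6157 in flox/flox replicates 1 to 4, against 5418, 6379, 8327 and 8248 in +/flox replicates 1 to 4. No marker of the list was at 0, the lowest value being 188. Between the genotypes 4 of the 10 markers had positive differences, and the median was -0.07. Where 10.3% of all genes lay under an unadjusted p of 0.05, 1 marker did. This was the Fc receptor gene Fcgr1, at 199, 195, 206 and 188 in flox/flox glands, against 209, 241, 347 and 260.1 in +/flox glands, lower without overlap (-0.37 ± 0.12, limma unadjusted p = 0.0119, adjusted p = 0.324). With the mean of the macrophage list as a covariate, an alternative chosen after seeing the data, the differences were 0.78 ± 0.15 for Ccl6, 0.65 ± 0.12 for Ccl8 and 0.54 ± 0.13 for Ccl9 (SE; limma adjusted p = 0.105, 0.0923 and 0.187), so all 3 stayed short of the threshold. Eosinophil and mast cell markers summed to 1867 to 2448 in flox/flox and 1552 to 2035 in +/flox glands. Of the 8, 7 were positive, none was at 0 and the lowest value was 46.9. At an unadjusted limma p under 0.05, 4 of the 8 were higher, where 4.81% of all genes were. These were Fcer1a (0.69 ± 0.13), Tpsb2 (0.41 ± 0.11), Mcpt4 (0.42 ± 0.15) and Cma1 (0.33 ± 0.13). Their limma adjusted p lay between 0.106 and 0.446. Fcer1a and Tpsb2 were without overlap, as were 5.9% of all genes. The part of these cells in the ligand values was not tested.

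Ccl6 and Ccl9 lie next to each other in the RefSeq gene order, between Ccl5 and Ccl3, and share a short stretch in their promoters. These promoters are shown because the pair moved together across the glands. Each runs from 250 bases before to 50 after the annotated start, 5′ to 3′ on the gene's strand, from RefSeq on GRCm38.p6. Capitals mark a match to a motif searched on both strands: the kappaB motif GGGNNNTTCC, the interferon-stimulated element TTTCNNTTTC, the STAT motif TTCNNNGAA or, added after seeing the data, the ETS core AGGAAGT, which the macrophage factor PU.1 also recognises.
Ccl6, minus strand, chr11:83593038-83593337: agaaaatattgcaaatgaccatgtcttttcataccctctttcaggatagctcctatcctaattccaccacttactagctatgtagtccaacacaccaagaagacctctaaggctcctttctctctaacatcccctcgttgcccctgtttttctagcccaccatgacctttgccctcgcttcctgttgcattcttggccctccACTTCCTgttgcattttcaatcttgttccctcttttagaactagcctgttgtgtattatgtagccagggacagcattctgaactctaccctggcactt
Ccl9, minus strand, chr11:83578587-83578886: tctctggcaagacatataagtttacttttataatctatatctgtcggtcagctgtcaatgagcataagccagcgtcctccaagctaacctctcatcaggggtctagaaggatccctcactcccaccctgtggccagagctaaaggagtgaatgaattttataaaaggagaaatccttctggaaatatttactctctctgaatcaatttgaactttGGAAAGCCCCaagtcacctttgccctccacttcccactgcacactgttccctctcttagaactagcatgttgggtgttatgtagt
The longest stretch they share, gccctccacttcc, is 13 bases long and begins 55 bases before the annotated start in Ccl6 and 14 before it in Ccl9. The Ccl6 window holds an ETS core and the Ccl9 window a kappaB match, so the pair shared none of these matches. The ETS core occurs in 9.35% of the 32851 promoters of the table and in 8 of 35 promoters of members, and the kappaB motif in 5.56% of all and in 8 of those 35, which cover 33 member genes. The motifs do not overlap in these windows, and a match is a description of the letters.

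The other 10 inflammatory CC ligands showed small differences, from -0.08 to 0.06, with limma adjusted p between 0.833 and 0.986. Ccl2, Ccl7 and Ccl12 are ligands of the monocyte receptor Ccr2. Ccl2 averaged 168 ± 6.21 in flox/flox and 173 ± 21.5 in +/flox glands and Ccl7 137 ± 15.3 and 137 ± 8.3. Ccl12 was the most uneven of the group, with 75.8, 86.6, 104 and 85.5 in flox/flox glands and 97.8, 79.5, 129 and 51.7 in +/flox glands. Ccl3 and Ccl4, which attract macrophages and T cells, averaged 61.6 ± 5.57 and 146 ± 17.5 in flox/flox, against 65.7 ± 8.90 and 139 ± 6.96 in +/flox glands. Ccl5, a T cell product, read 358, 293, 345 and 299 in flox/flox glands, against 396, 484, 315 and 224 in +/flox glands, where the highest and the lowest of the 8 values were both found. Its log2 difference was -0.08 ± 0.19 with and 0.08 ± 0.16 without +/flox replicate 2, the highest gland. Of the ligands of Ccr4, Ccl17 averaged 153 ± 8.88 in flox/flox and 151 ± 1.78 in +/flox glands, and Ccl22 104 ± 7.95 and 101 ± 15.6. Ccl20, the ligand of Ccr6, averaged 166 ± 19.1 in flox/flox and 158 ± 5.56 in +/flox glands, and Ccl1, a ligand of Ccr8, 105 ± 6.62 and 107 ± 7.19. Thus Ccl6, Ccl9 and Ccl8 were not accompanied by the neighbouring genes Ccl3, Ccl4 and Ccl5 or by Ccl12 and Ccl1, which flank Ccl8.

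Among the ligands of Cxcr3, which draw activated T cells and natural killer cells and are induced by interferon, Cxcl9 was higher in flox/flox glands at an unadjusted p under 0.05 and the other members were not. Cxcl9 read 362, 419, 350.2 and 317 in flox/flox glands, against 394, 257, 219 and 277 in +/flox glands. All flox/flox values lay above 3 of the 4 controls, and +/flox replicate 1 exceeded 3 of the flox/flox glands. The flox/flox mean was 362 ± 42.4 and the +/flox mean 287 ± 75.5, a 1.27-fold difference (log2 difference 0.34 ± 0.15 SE, interval 0.01 to 0.68, limma unadjusted p = 0.0448, adjusted p = 0.475). Leaving out +/flox replicate 1 gave 0.50 ± 0.11 (limma adjusted p = 0.197). The unadjusted p stayed under 0.05 there and without flox/flox replicate 4, and not without any of the other 6 glands, where the difference was as low as 0.23. Cxcl10 averaged 120.4 ± 24.4 in flox/flox and 126 ± 17.9 in +/flox glands (log2 difference -0.06 ± 0.14), and Cxcl11 136 ± 19.8 and 147 ± 7.88 (-0.12 ± 0.09). The receptor Cxcr3 averaged 146 ± 14.4 in flox/flox and 146 ± 14.9 in +/flox glands, with an interval of -0.19 to 0.20. The promoter of Cxcl9 (minus strand, chr5:92328030-92328329, GRCm38.p6, same window) held none of the 4 motifs:
Cxcl9: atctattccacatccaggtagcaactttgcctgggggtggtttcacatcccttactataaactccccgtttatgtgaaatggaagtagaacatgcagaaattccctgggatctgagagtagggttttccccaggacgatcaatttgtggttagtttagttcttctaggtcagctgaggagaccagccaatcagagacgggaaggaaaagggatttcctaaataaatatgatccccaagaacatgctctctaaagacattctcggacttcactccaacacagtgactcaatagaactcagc

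Cxcl13, Ccl19 and the receptors Cxcr5, Ccr7, Ccr6 and Cxcr4 were highest in +/flox replicate 2, and Cxcl12 was not. Cxcl13, which draws B cells into follicles, read 97.2, 65.4, 98.4 and 91 in flox/flox glands, against 65.6, 2115, 85.9 and 114 in +/flox glands. Apart from +/flox replicate 2 the glands of both genotypes lay between 65.4 and 114. The log2 difference was -1.09 ± 0.83 (SE, limma adjusted p = 0.70) with that gland and 0.01 ± 0.16 (limma adjusted p = 0.995) without it. Its receptor Cxcr5 read 30.2, 26.2, 20 and 22.5 in flox/flox glands, against 22.8, 102, 22.3 and 14.2 in +/flox glands. The difference was -0.24 ± 0.34 with and 0.19 ± 0.12 without +/flox replicate 2 (limma adjusted p = 0.850 and 0.644). Detection calls were not used here, so the low values of Cxcr5 cannot be told from background. The same holds for Cxcl2, Ccr4 and Ccr8, the other members with a mean under 50 over the 8 arrays.

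Ccl19 and its receptor Ccr7 bring T cells and dendritic cells into lymph nodes. Ccl19 read 182, 132, 148 and 154 in flox/flox glands, against 133, 252, 152 and 167 in +/flox glands, and its other 4 probe sets gave differences between -0.11 and -0.14 beside -0.15 for the one used. Ccr7 read 229, 197, 239 and 242 in flox/flox glands, against 218, 362, 208 and 217 in +/flox glands. For both genes +/flox replicate 2 was the highest gland, as it was for Ccr6, a receptor of B cells and other lymphocytes, which read 51.9 to 73.2 in flox/flox glands, against 111 in +/flox replicate 2 and 51.6 to 60.3 in the other +/flox glands. Without that gland the sign of all 3 differences turned: Ccl19 was -0.15 ± 0.16 with it and 0.03 ± 0.11 without it, Ccr7 -0.11 ± 0.15 and 0.07 ± 0.08, and Ccr6 -0.10 ± 0.18 and 0.11 ± 0.10. The array of +/flox replicate 2 was the highest of the 8 for 12 of the 45 members and for 10.3% of all genes, among them 4 of 8 CC receptors and 4 of 6 CXC receptors. That of flox/flox replicate 2 was the lowest for 14 of the 45 members and for 17.2% of all genes, among them 5 of 8 CC receptors. In +/flox replicate 2 the B cell antigen receptor gene Cd79a read 1073, against 36.9 to 69.7 in flox/flox and 32.0 to 61.3 in the other +/flox glands. The complement receptor gene Cr2, of B cells and follicular dendritic cells, read 957 there, against 68.4 to 78.0 in flox/flox and 74.0 to 77.0 in the other +/flox glands.

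**Figure D3:**
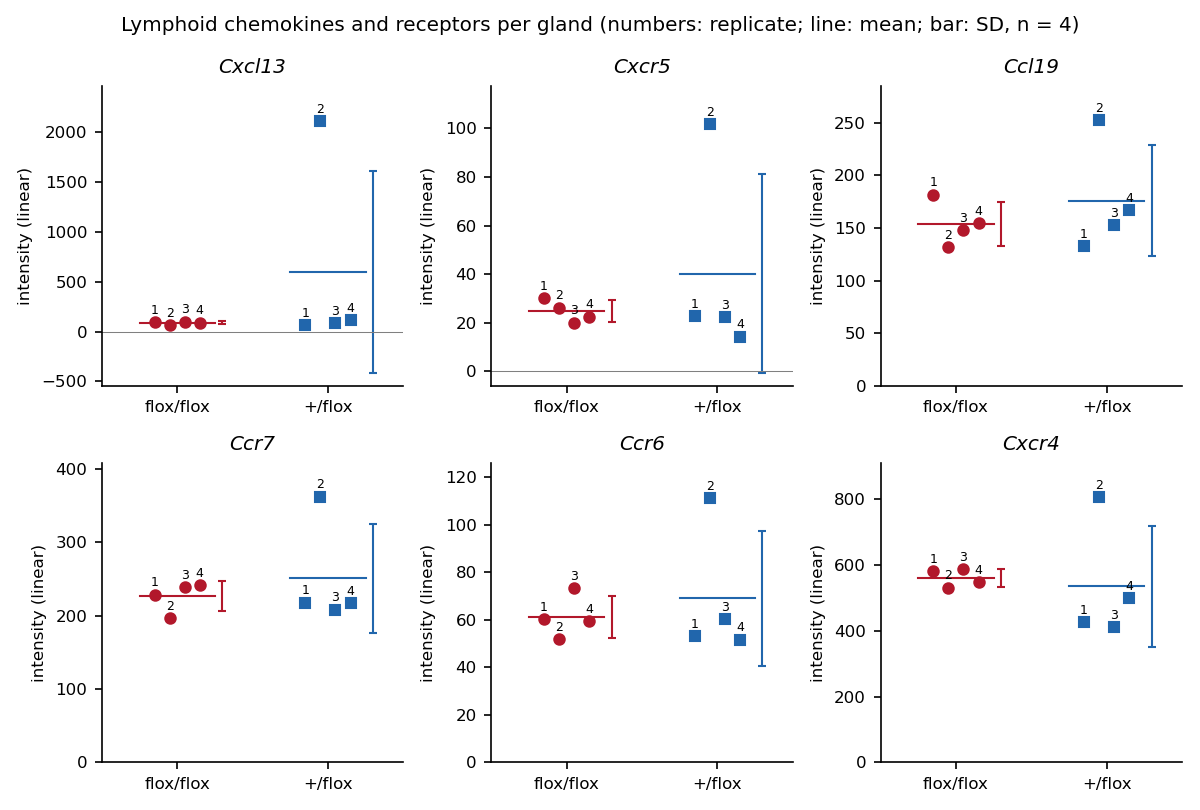
Linear intensity of Cxcl13, Cxcr5, Ccl19, Ccr7, Ccr6 and Cxcr4 in each gland, with replicate numbers, mean and SD (n = 4 per genotype). In all 6 panels +/flox replicate 2 is the highest gland, at 2115 for Cxcl13, and for Cxcr4 the other 3 +/flox glands lie below every flox/flox gland.

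Cxcl12, made by stromal cells, and its receptor Cxcr4, carried by most leukocytes, behaved differently from each other. Cxcl12 read 845, 635, 763 and 792 in flox/flox glands, against 661, 688, 784 and 851 in +/flox glands, with a log2 difference of 0.02 ± 0.11 (interval -0.21 to 0.26). Cxcr4 read 581, 530.0, 587 and 547 in flox/flox glands, against 425, 805, 409 and 499 in +/flox glands. The difference was 0.12 ± 0.17 (SE, limma adjusted p = 0.856), and 0.03 without +/flox replicate 1 and 0.014 without +/flox replicate 3. Without +/flox replicate 2 the flox/flox glands lay above all 3 remaining controls and the difference was 0.33 ± 0.09 (limma unadjusted p = 0.00342, adjusted p = 0.282). With the mean of the B and T cell markers as a covariate, and all 8 arrays, it was 0.31 ± 0.08 (limma adjusted p = 0.293). On those 7 arrays 2 members, Cxcr4 and Ccl22, had genotypes without overlap, and so did 9.56% of all genes.

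**Figure D4:**
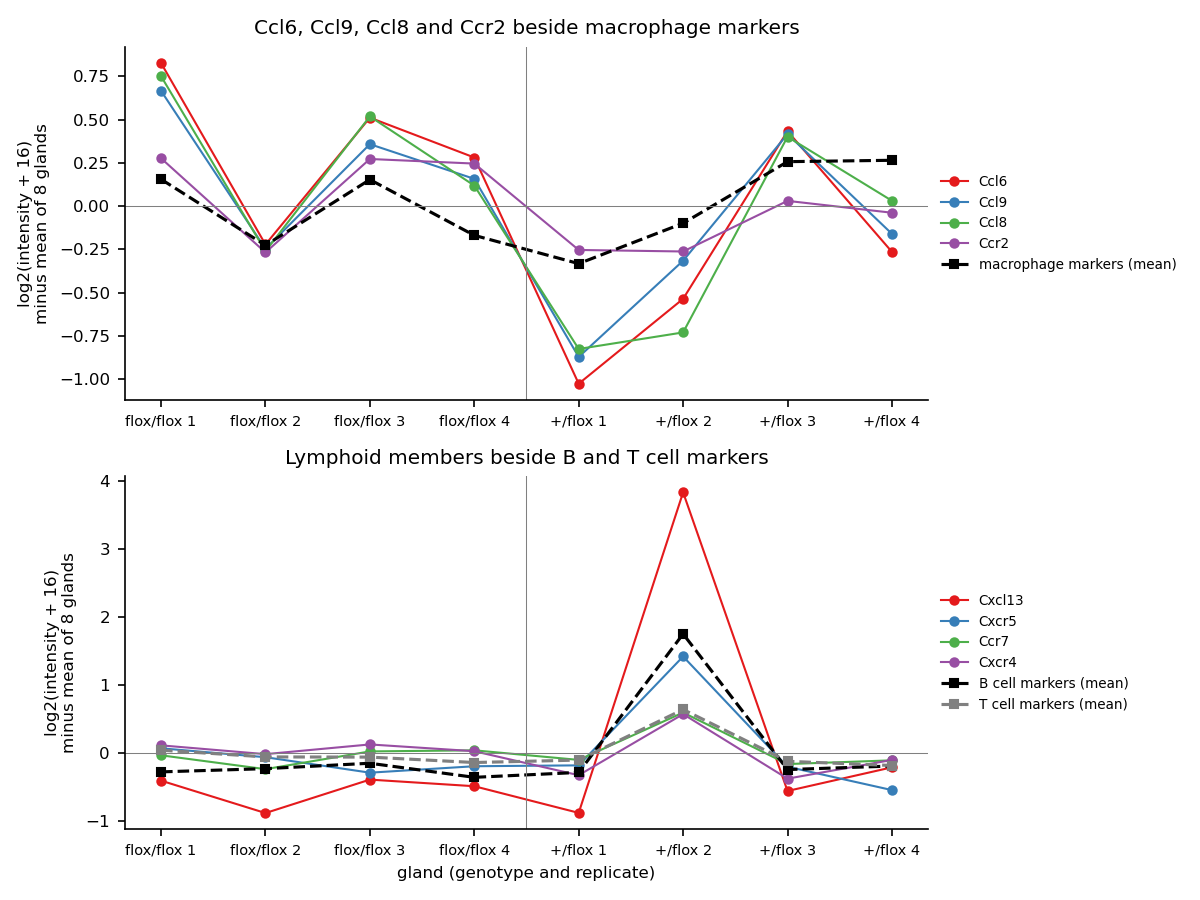
Log2 intensity (offset of 16) minus the mean of the 8 glands, by gland, for Ccl6, Ccl9, Ccl8 and Ccr2 beside the mean of the macrophage markers (top) and for Cxcl13, Cxcr5, Ccr7 and Cxcr4 beside the means of the B and T cell markers (bottom). The upper genes and the macrophage mean are low in flox/flox replicate 2 and +/flox replicate 1, and the lower genes peak in +/flox replicate 2. Ccl6, Ccl8 and Ccl9 are lower in +/flox replicate 2 than in flox/flox replicate 2, while the macrophage mean is higher, at -0.10 against -0.23. In flox/flox replicate 4 the macrophage mean is -0.17 while the upper genes lie above 0. In +/flox replicate 4 it is highest, at 0.26, while Ccl6, Ccl9 and Ccr2 lie below 0.

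The CXC ligands with an ELR motif attract neutrophils, mostly through Cxcr2, and 4 of 5 members had negative differences, with a median of -0.12. The median was 0.017 without flox/flox replicate 2, -0.0013 without flox/flox replicate 1 and -0.011 without +/flox replicate 3, so it gave no stable direction. Cxcl15, known in mice as a lung epithelial chemokine, read 133, 361, 482 and 496 in flox/flox glands, against 416, 369, 725 and 238 in +/flox glands. The extremes lay in flox/flox replicate 1 and +/flox replicate 3, a 2.31 range on the log2 scale, and the genotypes overlapped (log2 difference -0.28 ± 0.40, interval -1.16 to 0.59, limma adjusted p = 0.850). Without flox/flox replicate 1 its difference was 0.12. Cxcl1 averaged 311 ± 31.6 in flox/flox and 311 ± 38.8 in +/flox glands, with an interval of -0.22 to 0.23. Cxcl2 averaged 46.7 ± 10.8 and 52.2 ± 10.9, Cxcl3 178 ± 18.3 and 182 ± 9.56, and Cxcl5 85.8 ± 20.6 and 93.7 ± 7.46 in flox/flox and +/flox glands. The receptor Cxcr2 read 59.6, 61.3, 67.4 and 62.6 in flox/flox glands, against 65.8, 91.3, 71.9 and 65.9 in +/flox glands (log2 difference -0.18 ± 0.09, limma adjusted p = 0.538), with +/flox replicate 2 the highest, and -0.09 ± 0.07 without that gland. Its relative Cxcr1 averaged 126 ± 7.78 in flox/flox and 114 ± 11.2 in +/flox glands (0.13 ± 0.08).

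Of the ligands made by epithelia and other barrier tissues, Ccl28 came nearest to a difference. Ccl28 binds Ccr10 and brings antibody-secreting cells to the lactating gland. It read 107, 93.8, 117 and 96.1 in flox/flox glands, against 107, 117, 127 and 128 in +/flox glands, so that 2 of the 4 flox/flox glands lay below every control and the genotypes overlapped (log2 difference -0.18 ± 0.08, interval -0.37 to 0.00, limma unadjusted p = 0.0512, adjusted p = 0.489). Ccr10 itself averaged 209 ± 15.4 in flox/flox and 208 ± 16.5 in +/flox glands. Cxcl14, a chemokine of epithelia and fibroblasts, read 956, 1156, 763 and 792 in flox/flox glands, against 809, 856, 849 and 772 in +/flox glands, with the highest value in flox/flox replicate 2 and a log2 difference of 0.14 ± 0.12 (limma adjusted p = 0.740). Without flox/flox replicate 2 the difference was 0.02 ± 0.09 (limma adjusted p = 0.973). Cxcl16, which is both a membrane-bound adhesion molecule and a soluble ligand, averaged 195 ± 6.57 in flox/flox and 192 ± 30.1 in +/flox glands. Its receptor Cxcr6 averaged 88.4 ± 11.4 and 90.2 ± 18.3. The mucosal chemokine Cxcl17 averaged 200.2 ± 21.5 in flox/flox and 226 ± 30.1 in +/flox glands (-0.16 ± 0.10), and Ccl26 103 ± 5.13 and 94.3 ± 9.48 (0.12 ± 0.07). Ccl25, best known from thymus and small intestine, averaged 159 ± 16.1 in flox/flox and 156 ± 10.7 in +/flox glands, and its dimmer probe set gave -0.11 where the one used gave 0.02.

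Of the receptors of CC ligands, 3 of 8 had positive differences, and the median was -0.09, or 0.036 without +/flox replicate 2. Ccr2, which brings monocytes out of the blood, read 406, 273, 405 and 397 in flox/flox glands, against 276, 274, 339.7 and 323 in +/flox glands. In 3 flox/flox glands it was above every control, and flox/flox replicate 2 lay below all of them (log2 difference 0.26 ± 0.13, interval -0.02 to 0.54, limma adjusted p = 0.515). Without flox/flox replicate 2 the difference was 0.39 ± 0.09 (limma adjusted p = 0.229). Ccr1, a receptor for Ccl6 and Ccl9, read 84.2, 64.2, 90 and 75.5 in flox/flox glands, against 77.9, 55.1, 74.3 and 71.2 in +/flox glands (0.14 ± 0.11, limma adjusted p = 0.70). Its relative Ccr1l1 read 98.1, 77.2, 70.7 and 66.7 in flox/flox glands, against 87.7, 70, 81.8 and 87 in +/flox glands (-0.06 ± 0.11). The T cell receptors Ccr4, Ccr8 and Ccr9 averaged 46.2 ± 5.87, 32.5 ± 6.80 and 67.8 ± 7.11 in flox/flox glands, against 51.9 ± 8.90, 35.3 ± 4.10 and 76.4 ± 11.7 in +/flox glands, with log2 differences of -0.12, -0.09 and -0.14. The intervals of the 7 CC receptors other than Ccr2 reached no lower than -0.49 and no higher than 0.38.

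Genes that act beside these receptors were taken from lists by function. Among 14 measured genes of other chemokines and atypical or related receptors, 0 passed the test, and the list's median was 0.04. Over all genes, 4.81% were higher and 5.46% lower at an unadjusted p under 0.05, and 5.9% had genotypes without overlap. In this list 4 genes were higher and 1 lower at that limit. The 4 higher ones included 3 of the 4 atypical receptors Ackr1 to Ackr4, which take up chemokines without signalling through G proteins, and Ackr4 had a difference of -0.05 ± 0.09 (limma adjusted p = 0.890). Ackr3, which binds Cxcl12, read 447, 297, 323 and 342 in flox/flox glands, against 225, 211, 289.5 and 205 in +/flox glands, without overlap (log2 difference 0.56 ± 0.13, 1.48-fold, limma unadjusted p = 0.00154, adjusted p = 0.197). Ackr1, found on red cells and venular endothelium, read 250.2, 205, 185 and 219.9 in flox/flox glands, against 168, 159, 181 and 177 in +/flox glands, also without overlap (0.30 ± 0.09, limma adjusted p = 0.287). Ackr2, a scavenger of inflammatory CC chemokines on lymphatic endothelium, read 219, 179, 197 and 183 in flox/flox glands, against 159, 147, 179 and 181 in +/flox glands (0.21 ± 0.09, limma adjusted p = 0.455). The fourth was Xcr1, a receptor of cross-presenting dendritic cells (0.23 ± 0.10, limma adjusted p = 0.463), and the lower one was the fractalkine receptor Cx3cr1, at 166, 186, 193 and 201 in flox/flox glands, against 216, 210.3, 217 and 204 in +/flox glands, without overlap (-0.17 ± 0.07, limma adjusted p = 0.450). Markers of vascular and lymphatic endothelium summed to 4491 to 5865 in flox/flox and 4656 to 5338 in +/flox glands, with 3 of 8 positive and the lowest value at 41.5. Their part in the atypical receptor values was not tested.

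**Figure D5:**
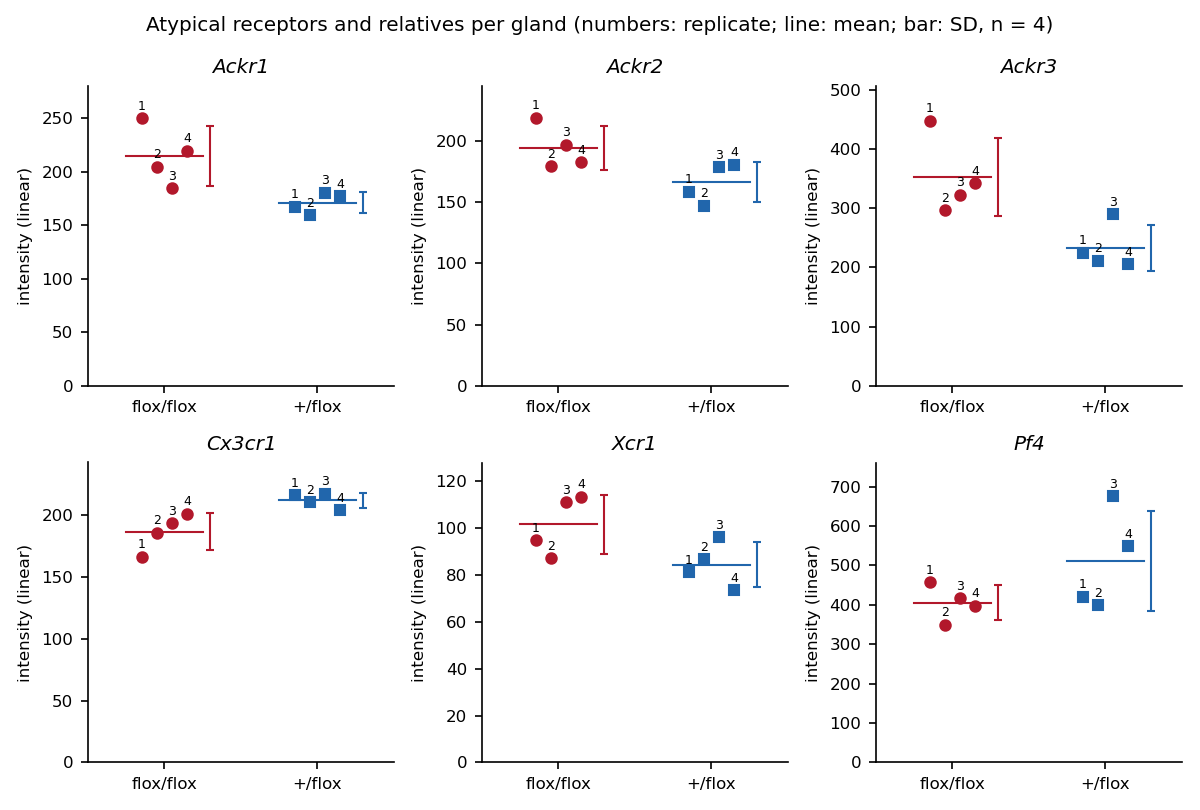
Linear intensity of Ackr1, Ackr2, Ackr3, Cx3cr1, Xcr1 and Pf4 in each gland, with replicate numbers, mean and SD (n = 4 per genotype). All flox/flox glands lie above all +/flox glands for Ackr1 and Ackr3 and below them for Cx3cr1.

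Of 18 measured genes of receptor signalling 0 passed the test. Where 10.3% of all genes lay under an unadjusted p of 0.05, 1 of these did, the Rac activator Elmo1 (0.22 ± 0.09, limma adjusted p = 0.437). Of 22 measured inducers of chemokines 0 passed. Where 5.46% of all genes were lower at an unadjusted limma p under 0.05, 4 of the inducers were. These were the cytokine genes Il1a (-0.26 ± 0.12), Il1b (-0.26 ± 0.08) and Il33 (-0.54 ± 0.22) and the interferon factor Irf7 (-0.45 ± 0.17), with limma adjusted p between 0.314 and 0.482. Il1a read only 9.75 to 21.5 in flox/flox and 16.9 to 25.7 in +/flox glands, near the added offset of 16. Its values cannot be told from background. Irf7 read 411, 315, 400.1 and 380.1 in flox/flox glands, against 367, 465, 623 and 677 in +/flox glands, so that 3 of 4 controls exceeded every flox/flox gland.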

How the data were processed

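The deposited values are linear intensities per probe set. The submitters' processing notes name PLIER and Affymetrix Expression Console 1.0 as the authors' tools. The arrays' percentiles differed by more than 0.1 on the log2 scale, so all 35557 probe sets were quantile normalised here, an offset of 16 was added and log2 taken. Of the probe sets 21789 had 1 gene symbol in GEO's platform annotation, 1621 several and 12147 none, and 21698 of the named ones matched RefSeq. The brightest probe set stood for each of the 19938 genes. Differences between genotypes, 4 arrays each, came from limma 3.58.1 (lmFit and eBayes without covariates; R 4.3.3), with Benjamini-Hochberg adjustment over all genes, after a test on simulated data. Values in the report are normalised intensities. Precision is limited by having 8 arrays, and detection calls were not used here.

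The members and lists were chosen with earlier results of these data known. By rule, 12 members have all values given: those at an unadjusted p under 0.05 or without overlap, the highest mean of each role group, and the 6 largest log2 ranges. Values per gland of Ccl5, Ccl12, Ccl19, Ccl28, Ccr1, Ccr6, Ccr7 and Cxcr2, and the Ccl9 promoter, were added after their values were seen. Of each list of other genes, at most 4 with an unadjusted p under 0.05 were to be named, by p, and Xcr1 was named as the fifth. Such genes of the B cell, neutrophil, fibroblast, muscle and skin marker lists were not named. Alternatives covered scaling, offset, a filter on dim genes, a replicate block, variance options, array weights, marker covariates, the probe set used, the features tested and each array left out. Replicate numbers did not pair the samples.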

Additional observations from a re-analysis of the deposited data

Results flagged for a closer look

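Of 90 groups of 4 glands examined (45 members in 2 genotypes), 7 held a gland whose gap to the nearest other exceeded Dixon's 95% critical value, and chance alone flags about 1 group in 20. The 3 flags in +/flox replicate 2 were high values, at 2115 for Cxcl13, 362.2 for Ccr7 and 117.5 for Cxcr6, in the gland with the highest B and T cell marker sums. In flox/flox replicate 2, Ccl4 was low at 120.2, Ccr2 was low at 273.3 and Ccl26 was high at 111. In flox/flox replicate 3, Cxcr6 was low at 71.3.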

How the results depend on the processing

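Under 20 alternatives, 0 members passed the adjusted threshold in each, and the number at an unadjusted p under 0.05 was 2 as reported. It was 1 with an offset of 1, 0 with trend and robust eBayes options, 0 with all probe sets tested, 7 with the macrophage covariate (chosen after seeing the data) and between 0 and 5 with 1 array left out. With the replicate block it was 4 (Ccl6, Ccl8, Ccr2 and Cxcl9); same-numbered samples had deviations correlated at -0.20 to 0.21, so the numbers gave no pairing. Genes past the threshold numbered 8 as reported and 1 to 23 over the alternatives. Ccl6, Ccl8, Ccl9, Ccr2, Cxcl9, Cxcl14 and Cxcr4 kept a positive difference in all 20, with lowest values of 0.47, 0.38, 0.25, 0.21, 0.23, 0.021 and 0.014. The median of the CXCR3 ligands was 0.11 without the lowest 1 in 3 genes. That of the CXC receptors was 0.093 with the B and T cell covariate, and -0.052 to 0.098 with 1 array left out; the CC receptors' ran from -0.14 to 0.036 and the ELR ligands' from -0.16 to 0.017. With that covariate Cxcl12 was -0.0088 and Cxcr5 0.15. With 1 array left out, Cxcl12 lay between -0.031 and 0.10, Cxcl15 between -0.52 and 0.12, Ccr1l1 between -0.15 and 1.117e-04, Cxcl13 between -1.56 and 0.0078 and Cxcr5 between -0.46 and 0.19. The causes were not tested. Cxcr5 and Ccr1l1 gave no value without the lowest genes.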
